A study of Mus musculus with 15 samples.

Results

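The 421 H3K27ac domains of 8000 bp or more in E13.5 preSertoli cells were the broadest 1.47% of the 28586 domains listed for these cells. They were chosen by width alone, as the distance from the first to the last base of a domain, and the other 28165 domains are called narrower here. PreSertoli cells are fetal precursors of Sertoli cells, the supporting cells that surround germ cells in the testis cords. H3K27ac is acetylation of lysine 27 on histone H3, a mark of active promoters and enhancers, mapped by chromatin immunoprecipitation and sequencing (ChIP-seq). DNase-seq maps open chromatin, where nucleosomes are displaced and a nuclease can cut, and its peaks commonly lie over promoters and enhancers. In many cell types long stretches of H3K27ac cover several neighbouring enhancers or the start of a highly active gene, and the longest are often described near genes that mark the identity of the cell. A domain is therefore a stretch of acetylated nucleosomes, and the DNase peaks inside it are the candidate sites of factor binding.

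The series held 15 mouse samples. The preSertoli DNase-seq libraries came from testes of E13.5 and E15.5 (embryonic day) male F1 embryos heterozygous for Sox9-ECFP, a fluorescent reporter, sired by homozygous transgenic C57BL/6J males on CD-1 females, with the cells purified by flow sorting. The other 6 DNase-seq libraries came from C57BL/6J embryonic stem (ES) cells grown without feeders, skin fibroblasts in culture, and whole brain, heart, kidney and liver of adult B6 mice, each a mixture of cell types. The ChIP-seq comprised 2 libraries and 2 inputs of sorted E13.5 preSertoli cells of the same cross, pooled over several sorts. RNA-seq comprised 3 libraries of E15.5 preSertoli cells, in which 15 of 16 Sertoli markers ranked at or above the 75th percentile of 27697 gene symbols, as did 5 of 6 fetal Leydig markers and none of the 6 granulosa, 6 germ cell, 5 endothelial or 3 listed blood markers. The part of Leydig RNA or Leydig cells in the results below was not tested. Endogenous nucleases cut the chromatin of preSertoli cells, and added DNase I that of all the others, so cell type and digestion cannot be told apart. Each DNase group was 1 library, and the tests below treat the 8 libraries as the units, over the same domains. The libraries share these domains and part of their open sites, and both preSertoli libraries are of 1 cell type. The p-values take the libraries as independent, which this sharing does not grant. Intervals are 95% intervals and cover counting error only.

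The broad domains had a median width of 9400 bp, with an interquartile range of 8400 to 11400 bp and a maximum of 27600 bp. They covered 4.37 Mb, or 6.15% of all domain length, and narrower domains had a median of 2000 bp. Of the 421, 244 were 8000 to 9800 bp wide, 150 were 10000 to 14800 bp, and 27 were 15000 bp or more. The threshold cut a continuous range of widths. The 47 domains of exactly 8000 bp held 0.354 E13.5 preSertoli peaks per kb, and the 34 domains of 7800 bp, just outside, held 0.328. A region specific to preSertoli cells, defined further below, lay in 48.9% of the former and 50.0% of the latter.

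Nearly every broad domain was open in preSertoli cells, and most held several peaks. A peak was counted in the domain that held its midpoint. In the E13.5 preSertoli list 415 of the 421 held at least 1 peak, a share of 98.6% (Wilson interval 96.9 to 99.3), where 69% of all domains did. The E15.5 preSertoli list gave 415 of 421 too, where 67.4% of all domains did. The shares in the other lists were 78.6% for ES cells, 76.2% for fibroblasts, 77.9% for brain, 84.1% for heart, 81.2% for kidney and 77.9% for liver. Over all domains those lists gave 53.2%, 48.4%, 47.6%, 50.9%, 51.4% and 48%. A domain of greater width has more room for a peak, so these shares are a description of the domains and not a contrast at equal length.

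The number of peaks per broad domain averaged 3.59 in the E13.5 list and 3.89 in the E15.5 list, with medians of 3 and 4. The means in the other lists were 2.42 in kidney, 2.40 in ES cells, 2.32 in heart, 2.12 in liver, 2.03 in fibroblasts and 1.81 in brain. Narrower domains averaged 0.906 and 0.911 peaks in the preSertoli lists and 0.580 to 0.698 in the others. In the E13.5 list 278 broad domains (66.0%) held 3 or more peaks, where 4.82% of all domains did. In the E15.5 list it was 295 (70.1%), where 5.36% of all domains did. In brain it was 116 and in fibroblasts 124, where 2.06% and 2.33% of all domains did. In liver it was 141, in heart 162, in ES cells 169 and in kidney 175, where 3.4%, 3.19%, 3.59% and 3.37% of all domains did. The fewest broad domains without any peak were the 6 in each preSertoli list, and the most were the 100 in fibroblasts.

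**Figure D1:**
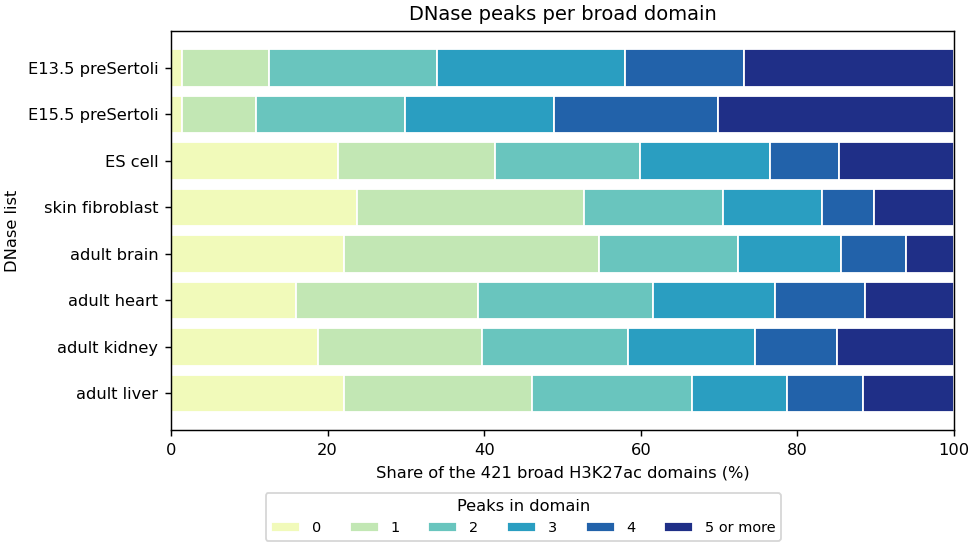
Share of the 421 broad H3K27ac domains (x axis, percent) with 0, 1, 2, 3, 4 and 5 or more DNase peaks in each of the 8 lists (y axis), 1 library per list. The segment without a peak is 1.43% in both preSertoli lists and 16% to 24% in the others, and 5 or more peaks occur in 113 domains in the E13.5 list and in 127 in the E15.5 list.

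Per kb, the broad domains held fewer DNase peaks than the narrower domains in all 8 lists. The E13.5 preSertoli list had 0.345 peaks per kb in broad and 0.382 in narrower domains, a log2 ratio of -0.15 (interval -0.22 to -0.07). The E15.5 list had 0.374 and 0.384, a log2 ratio of -0.04 (interval -0.11 to 0.03) that includes 0. The remaining lists differed more: ES cells had 0.231 and 0.295 (log2 ratio -0.35), fibroblasts 0.196 and 0.255 (-0.38), brain 0.174 and 0.245 (-0.49), heart 0.223 and 0.278 (-0.32), kidney 0.233 and 0.281 (-0.27), and liver 0.204 and 0.271 (-0.41). The mean log2 ratio was -0.30 ± 0.15 (SD, n = 8 libraries), negative in 8 of 8, with p = 0.00781 in an exact two-sided sign-flip permutation test, the smallest value 8 libraries can give, and 0.00977 after Benjamini-Hochberg adjustment over 5 tests. With autosomes alone it was -0.28. With broad taken from 10000 bp it was -0.25, and the E15.5 list then stood at 0.0082, so its sign was not settled.

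The size of this gap depended on which narrower domains and which peaks were counted. Peak density was highest in the shortest domains and levelled off above 2000 bp in the preSertoli lists. For domains of 200 to 800 bp, of 1000 to 1800 bp, of 2000 to 3800 bp, of 4000 to 7800 bp and of 8000 bp or more, the E13.5 list held 0.609, 0.460, 0.362, 0.342 and 0.345 peaks per kb. The E15.5 list held 0.549, 0.446, 0.367, 0.356 and 0.374. The brain list went on down over the same classes, with 0.392, 0.306, 0.238, 0.198 and 0.174. Against domains of 4000 to 7800 bp alone the mean log2 ratio over the 8 libraries was -0.09, with p = 0.0313 in the exact sign-flip test. In the better-scoring 50% of each list, against all narrower domains, it was -0.63.

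**Figure D2:**
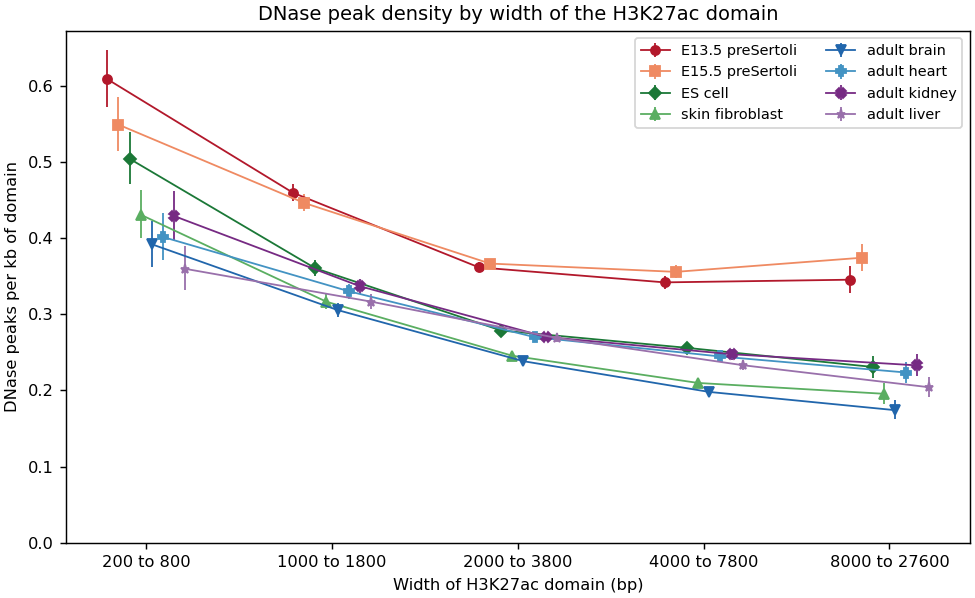
DNase peaks per kb of domain (y axis) in 5 classes of domain width (x axis, bp) for the 8 lists, 1 library each, with 95% Poisson intervals as bars. Both preSertoli lists lie above the others in every class and end at 0.345 and 0.374 in the broad domains, where the other 6 lie between 0.174 and 0.233.

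Against domains of 4000 to 7800 bp the point estimates of the preSertoli lists and of the other lists lay on opposite sides of 0, with intervals that included 0 in 4 of the 8 lists. The log2 ratio was 0.015 in the E13.5 list (interval -0.07 to 0.10) and 0.07 in the E15.5 list (interval -0.01 to 0.15), both intervals including 0. In the other lists it ran from -0.19 in liver and brain to -0.09 in kidney, and the intervals of fibroblasts (-0.21 to 0.0059) and kidney (-0.19 to 0.010) included 0 as well. The preSertoli mean exceeded the mean of the others by 0.18 in this contrast and by 0.28 against all narrower domains. In each case the exact two-sided permutation test of 2 libraries against 6 gave p = 0.0714, the smallest it allows, so this design cannot reach 0.05. A full split in sign, as against domains of 4000 to 7800 bp, fixes the p-value at that floor. Digestion by endogenous nucleases moved with the preSertoli lists, and its part was not tested.

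Peaks inside broad domains also covered less of the length and ranked lower than those in narrower domains. Peaks covered 20.8% of broad and 25.8% of narrower domain length in the E13.5 list and 26.1% and 26.7% in the E15.5 list. The covered shares in the other lists were 9.47% of broad and 15.9% of narrower domain length in liver, 9.61% and 18.1% in brain, 11.6% and 18.0% in heart, 12.2% and 18.4% in fibroblasts, 12.4% and 19.1% in kidney, and higher in ES cells. The mean log2 ratio of covered shares was -0.56 ± 0.27 (SD, n = 8 libraries), negative in 8 of 8, with p = 0.00781 in the exact sign-flip permutation test and 0.00977 adjusted. Against domains of 4000 to 7800 bp it was -0.33, again with an exact p = 0.00781.

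Peak rank within a list was taken from the authors' score, with 100 as the strongest. In the E13.5 list the median percentile rank was 63.1 in broad domains, 74.8 in narrower domains and 41.8 outside domains. In the E15.5 list the medians were 62.6, 71.1 and 41.8. Brain had the widest gap, with 52.0 in broad and 82.5 in narrower domains. The mean difference between broad and narrower was -21.1 ± 7.42 percentile points (SD, n = 8 libraries), negative in 8 of 8, exact sign-flip permutation p = 0.00781 and 0.00977 adjusted. It was -10.9 against domains of 4000 to 7800 bp, with the same exact p. The highest score of 1000 was given to 16.4% of E13.5 peaks in broad domains, 32.8% in narrower domains and 4.16% outside. Broad domains thus held peaks of intermediate rank, stronger than those outside H3K27ac and weaker than those of narrower domains. The median peak was 462 bp wide in broad domains, 593 bp in narrower domains and 259 bp outside, in the E13.5 list.

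The median distance between midpoints of neighbouring peaks in the same domain was 1650 bp in broad and 1031 bp in narrower domains in the E13.5 list, and 1608 and 1034 bp in the E15.5 list. The mean log2 ratio of the distances was 0.58 ± 0.06 (SD, n = 8 libraries), positive in 8 of 8, with an exact sign-flip permutation p = 0.00781 and 0.00977 adjusted. A short domain caps this distance, and the difference was smaller when the domains or the pairs compared were limited. The part of the cap was not tested. Against domains of 4000 to 7800 bp the mean was 0.28, and over pairs within 2000 bp of each other against all narrower domains it was 0.18, each with an exact p = 0.00781. With both limits together, a contrast added after seeing the data, the mean was 0.012, positive in 5 lists and negative in 3 (-0.038 to 0.076), with p = 0.445 in the exact sign-flip permutation test. The E13.5 medians in that contrast were 1057 bp in broad domains and 1085 bp in domains of 4000 to 7800 bp. A difference in spacing was thus not detected once domains of nearer width and pairs of the same reach were compared.

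From the edge inward, the E13.5 list held 0.150 peaks per kb of broad domain in the outermost 500 bp, 0.299 in the next step and 0.406 between 1000 and 1500 bp. Farther in, density stayed between 0.316 and 0.399 up to 4000 bp from the edge. Domains of 4000 to 7800 bp gave nearly the same values over the first 3 steps, 0.153, 0.302 and 0.408, and 0.445 in the next. Brain peaks in broad domains went from 0.126 in the outermost step to 0.223 at 1000 to 1500 bp and to 0.164 at 3500 to 4000 bp. In the 5000 bp flanks, leaving out other domains, broad domains had 0.0811 E13.5 peaks per kb against 0.0446 beside narrower domains. The inside of a broad domain held 4.26 times the density of its flanks in the E13.5 list, 3.68 times in the E15.5 list and 2.50 (ES cells) to 3.33 times (brain) in the others. Narrower domains stood out more from their flanks, with 8.57 times at E13.5, 7.73 times at E15.5 and 4.99 (ES cells) to 7.55 times (brain) in the others.

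**Figure D3:**
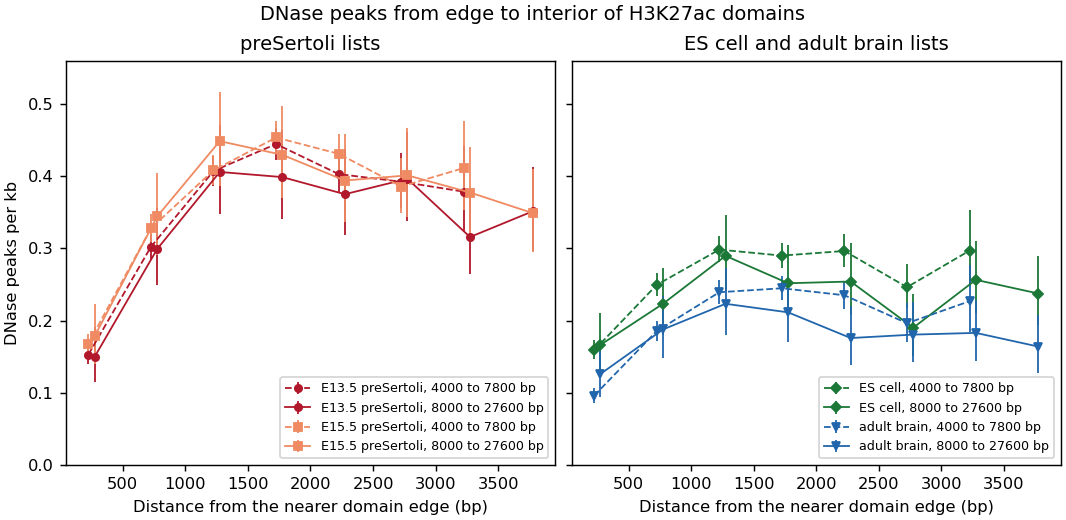
DNase peaks per kb (y axis) by distance of the peak midpoint from the nearer domain edge (x axis, bp, in steps of 500 bp), for both preSertoli lists on the left and for ES cells and adult brain on the right, with 95% Poisson intervals as bars. Solid lines are broad domains and dashed lines domains of 4000 to 7800 bp, and the E13.5 lines start near 0.15 in both classes and reach 0.406 and 0.408 between 1000 and 1500 bp.

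Peak density varied widely among the 421 domains. In the E13.5 list it ran from 0 to 0.921 per kb with a median of 0.326, and in the E15.5 list from 0 to 1.22 with a median of 0.357. The brain, fibroblast and liver medians were 0.122, 0.123 and 0.169. Across the 421 domains, E13.5 counts followed E15.5 counts with a Spearman coefficient of 0.727. The coefficient with the other lists ran from 0.444 (liver) to 0.561 (fibroblasts), and with domain width it was 0.342. All of these share the domains and their width, and they are descriptions only. By chromosome, the E13.5 density was lower in broad than in narrower domains on 15 of 21 chromosomes, the E15.5 density on 14 of 21, and the fibroblast density on 20 of 20.

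The broadest domains were not simply the richest in peaks. In domains of 8000 to 9800 bp, 10000 to 14800 bp and 15000 bp or more the E13.5 list held 0.336, 0.338 and 0.410 peaks per kb, and 0.377 in the last class without the 3 domains on chromosome Y. The widest domain, chr2:77734601-77762200 (mm9, 27600 bp), held 1 peak in the E13.5 list and 3 in the E15.5 list, 1 each in brain and heart, and none in the other 4 lists. Its neighbour 0.8 kb away, chr2:77763001-77790000 (27000 bp), held 1 peak in each preSertoli list, 2 in brain and 1 in each of the others. By contrast chr10:79609201-79636600 (27400 bp) held 8 to 11 peaks in every list. These 3 domains of like width thus ran from few peaks to many, and all but the first held a peak in every list.

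The 3 broad domains on chromosome Y lay in 1 run between positions 2779601 and 2902600. The domain chrY:2875401-2902600 (27200 bp) held 18 E13.5, 15 E15.5 and 20 fibroblast peaks, and none in the other 5 lists. The other two held 12 and 14 E13.5 peaks, 11 and 18 E15.5 peaks and 10 and 17 fibroblast peaks. The ES cell, brain, heart, kidney and liver lists held 0 peaks anywhere on chromosome Y, so absence in these domains is not particular to them. How the authors treated reads that match several places in the genome is not given in the sources used here.

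The highest E13.5 density, 0.921 per kb, was in chr11:120091201-120106400 (15200 bp), which held 14 peaks at E13.5, 10 at E15.5 and 7 to 13 in the others. The next was chr9:44290801-44299600 (8800 bp) with 8 peaks at E13.5, 5 at E15.5 and 5 to 9 in the others. None of the 5 domains of highest E13.5 density held a preSertoli-specific region. At the other end, 6 domains held no E13.5 peak, and chr14:27256601-27266400 (9800 bp) and chr16:3256801-3266000 (9200 bp) held no peak in any list. One domain chosen after its values were seen, chr9:3015201-3032800 (17600 bp), held fewer peaks in preSertoli cells, 10 at E13.5 and 7 at E15.5, than in the other lists, which held 16 to 19. It was 1 of 2 broad domains between positions 2999801 and 3032800. The cause of these counts was not tested, and the treatment of reads that match several places is unknown for it too.

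Most broad domains held a peak in every list, and the preSertoli lists held the highest mean counts without leading in most single domains. A peak in each of the 8 lists was found in 239 broad domains, 56.8% (interval 52.0 to 61.4), where 37.5% of all domains did so. Both preSertoli lists held more peaks than each of the other 6 in 119 broad domains, 28.3% (interval 24.2 to 32.7), where 9.39% of all domains did so. PreSertoli peaks with no peak of another list were found in 12 broad domains, 2.85%, against 11.2% of narrower domains. Both preSertoli lists lacked a peak in 4 broad domains, 0.950%, against 27.5% of narrower domains. No list at all held a peak in 0.475% of broad and 21.7% of narrower domains. A wider domain has more room for a peak of any list, so none of the shares in this paragraph is at equal length. The E15.5 count exceeded the E13.5 count in 168 domains, fell short of it in 111 and equalled it in 142. Longer lists have more peaks to place, and the preSertoli lists (88107 and 81467 peaks) lay between ES cells (96536) and the others (62218 to 72883).

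Merging the peaks of all 8 lists gave 237612 regions, of which 2255 had their midpoint in a broad domain, 5.36 per domain. Their number per kb was close to that in narrower domains, 0.516 and 0.512, while the cell types that shared them differed. Regions with a peak in all 8 lists made up 14.4% of those in broad domains, 32.0% in narrower domains and 22.9% in domains of 4000 to 7800 bp. Per kb this was 0.0743 in broad and 0.164 in narrower domains. Regions of preSertoli cells and some, but not all, other cell types made up 31.7% in broad and 24.8% in narrower domains, and 27.3% at 4000 to 7800 bp. Regions of other cell types alone made up 25.1% in broad domains, 20.9% in narrower domains and 62.1% outside domains. In domains of 4000 to 7800 bp their share was 24.8%, close to that in broad domains. The median region in a broad domain was present in 2 lists, against 3 in narrower domains and 1 outside.

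**Figure D4:**
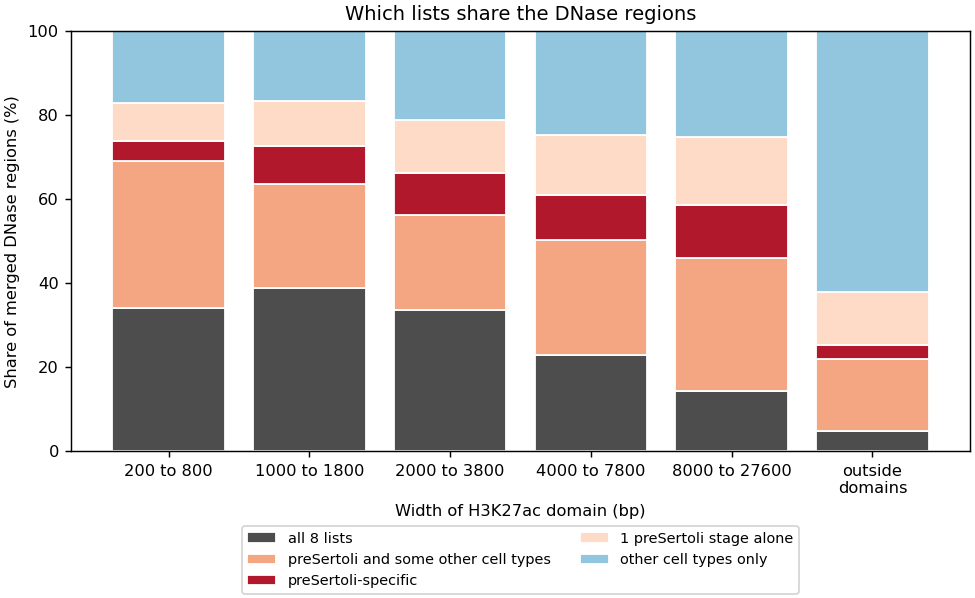
Shares (y axis, percent) of the merged DNase regions with a midpoint in H3K27ac domains of 5 width classes or outside domains (x axis), by the lists in which they had a peak. The share present in all 8 lists is 34.1% in domains of 200 to 800 bp, 39.0% at 1000 to 1800 bp and 14.4% in broad domains, and the preSertoli-specific share is 4.68%, 9.03% and 12.5%.

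A region was called preSertoli-specific when both preSertoli lists and none of the other 6 had a peak in it. There were 281 such regions in broad domains, 12.5% of the regions there (interval 11.2 to 13.9). The share was 9.74% in narrower domains (interval 9.43 to 10.1) and 3.26% outside. It was 10.9% in domains of 4000 to 7800 bp (interval 10.3 to 11.6), which overlaps the interval of broad domains. The density of preSertoli-specific regions was 0.0643 per kb in broad domains (interval 0.0570 to 0.0723) and 0.0498 in narrower domains (interval 0.0482 to 0.0516). In domains of 4000 to 7800 bp it was 0.0536 (interval 0.0503 to 0.0570). The density intervals of the broad and the 4000 to 7800 bp class just meet, and regions are not replicates. The density was not highest in the very widest: 0.0723 per kb in domains of 8000 to 9800 bp, 0.0650 in those of 10000 to 14800 bp and 0.0290 in the 27 of 15000 bp or more, or 0.0337 without chromosome Y.

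At least 1 preSertoli-specific region lay in 208 broad domains, 49.4% (interval 44.7 to 54.2), where 11.7% of all domains held one and 24.0% of domains of 4000 to 7800 bp did. Of the 421, 213 held none, 149 held 1, 48 held 2, 9 held 3, 1 held 4 and 1 held 5. The 59 with 2 or more were 14.0%, where 0.85% of all domains held that many. Broad domains held 2.76% of all 10165 preSertoli-specific regions of the genome and 0.949% of all merged regions. Narrower domains held 32.7% and 14.4%, and those of 4000 to 7800 bp 9.69% and 3.79%, so such an excess was not particular to broad domains. Of the preSertoli-specific regions inside domains, broad domains held 7.79%, on 6.15% of domain length. A region present in all 8 lists lay in 225 broad domains (53.4%), where 37.8% of all domains held one. Both kinds occurred together in 93 broad domains (22.1%), where 1.47% of all domains and 5.97% of domains of 4000 to 7800 bp held both. These shares of domains are not at equal length either, as a wider domain has more room for a region.

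Regions found in a single other cell type were fewer in broad domains than preSertoli-specific ones. ES cells had 130, liver 63, fibroblasts 60, kidney 60, heart 59 and brain 22 such regions there. As a share of all regions of that kind, broad domains held 0.200% (brain) to 0.520% (kidney), against 2.76% of the preSertoli-specific ones. The rules differ, since a preSertoli-specific region needs a peak in both preSertoli lists and the others need a peak in a single list. For regions of a single preSertoli list the share was 0.617% at E13.5 and 2.02% at E15.5. Compared with narrower domains per kb, the ratio was 1.29 for preSertoli-specific regions, 1.47 for kidney, 1.34 for fibroblasts, 1.24 for heart, 1.07 for liver, 0.981 for ES cells and 0.868 for brain. By point estimate the step from narrower to broad domains was no larger for preSertoli-specific regions than for kidney or fibroblast regions. The level of preSertoli-specific regions was higher in both classes. The kidney and fibroblast ratios rest on 60 regions each in broad domains and carry no interval, so their order is not settled. In chrY:2875401-2902600 and chrY:2847401-2873400, 5 and 4 regions lacked a preSertoli peak, and fibroblasts were the only other list with peaks on that chromosome. The fibroblast ratio without chromosome Y was not tested.

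The domain with the most preSertoli-specific regions was chr7:147139201-147151800 (12600 bp), with 5. It held 6 peaks at E13.5 and 7 at E15.5, and none in any of the other 6 lists. The strongest of its specific regions was chr7:147143751-147144459 (709 bp), at percentile rank 85.4 in the E13.5 list and 88.2 in the E15.5 list. The weakest was chr7:147151086-147151341, at ranks 32.8 and 26.2. Within 4 kb outside this domain, peaks of several other lists lay on both sides.

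The domain chr5:141133601-141142600 (9000 bp) held 4 preSertoli-specific regions among 6 regions, with 6 peaks in each preSertoli list, 1 or 2 in ES cells, fibroblasts, brain, heart and kidney, and none in liver. Its specific regions ranked between 26.4 and 44.6 at E13.5 and between 0.993 and 74.5 at E15.5. Among the domains with 3 were chr5:123223601-123237800 (14200 bp) and chr17:24606601-24619200 (12600 bp), where 1 and 2 regions present in all 8 lists lay beside the specific ones. In the former the specific regions ranked from 4.64 to 68.2 at E13.5 and from 5.40 to 49.8 at E15.5. Its regions chr5:123236379-123236479 (101 bp) and chr5:123236552-123236945 (394 bp) lay side by side, at ranks 5.40 and 6.20 at E15.5. In chr13:50518201-50528000 (9800 bp) all 3 regions were preSertoli-specific, and no other list had a peak. Domains rich in specific regions therefore included some open in preSertoli cells alone and others built around widely shared sites. The domains were not assigned to genes, since no annotation of mm9 was used here.

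**Figure D5:**
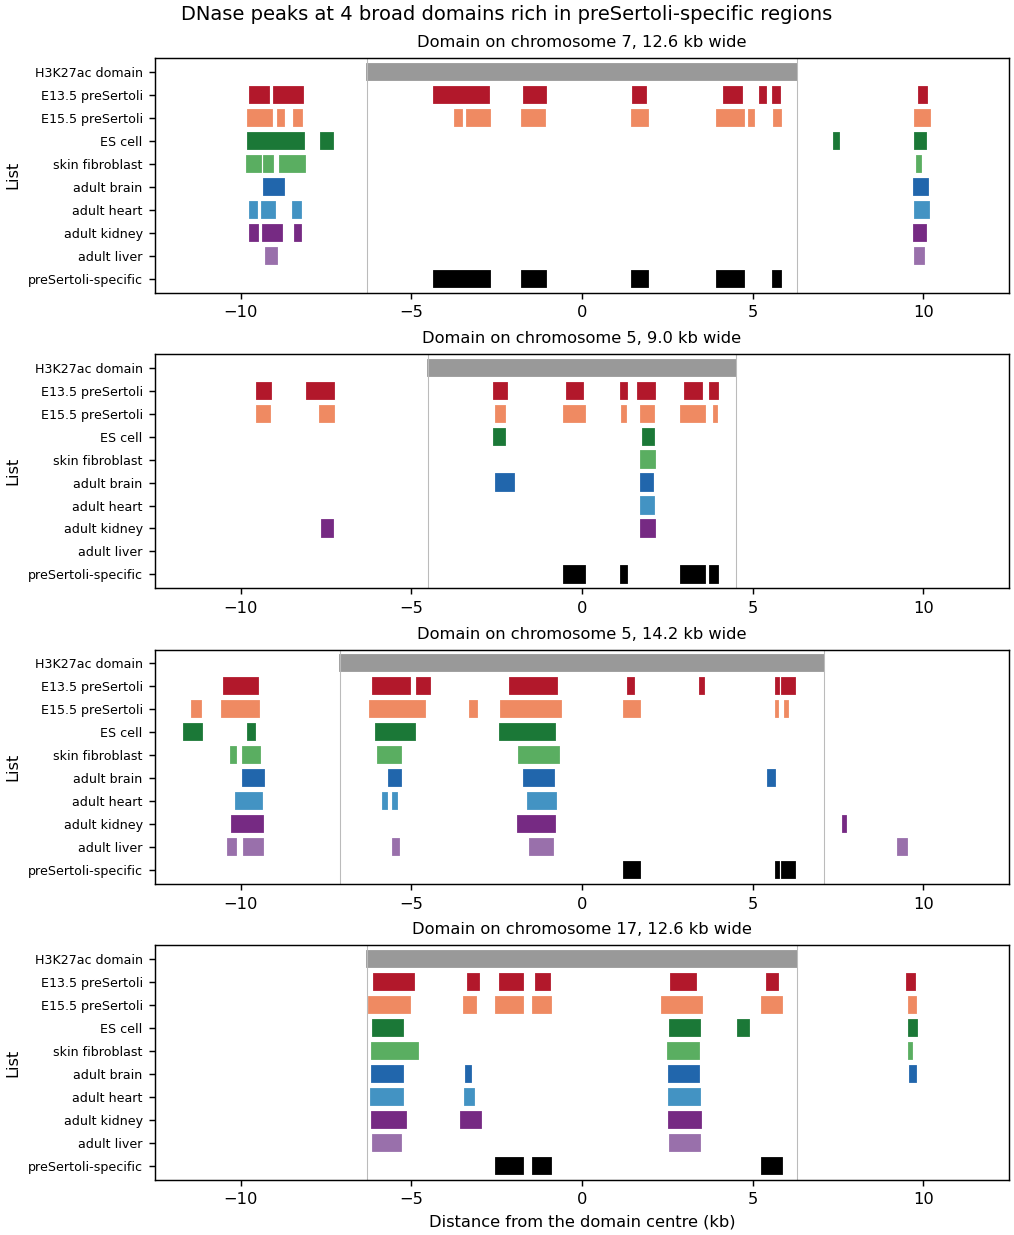
DNase peaks of the 8 lists (y axis) within 12.5 kb of the centre (x axis, kb) of 4 broad domains ranked by number of preSertoli-specific regions, with ties at 3 ordered by width. Grey bars are the H3K27ac domains, black bars the preSertoli-specific regions, and the first domain holds 5 black bars and no peak of the other 6 lists.

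The stages differed most in sites called at E15.5 alone, while the H3K27ac was of E13.5 cells. Regions with an E15.5 and no E13.5 peak, whatever the other lists, numbered 396 in broad domains, 0.0906 per kb, against 0.0522 in narrower domains. Regions with an E13.5 and no E15.5 peak numbered 171, 0.0391 per kb against 0.0474. Of regions with a peak at either stage, 66.4% had both in broad domains and 75.4% in narrower domains. Domains of 4000 to 7800 bp lay between, at 70.9%. Of the E15.5 peaks in broad domains, 73.5% (interval 71.3 to 75.6) were overlapped by an E13.5 peak, against 84.4% in narrower domains and 64.8% outside. On autosomes it was 73.7%, against 78.9% in domains of 4000 to 7800 bp. In the other direction, 87.2% of E13.5 peaks in broad domains were overlapped by an E15.5 peak, against 86.1% in narrower domains.

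Regions present in the E15.5 list and in no other were 1.70 times as dense in broad as in narrower domains (interval 1.49 to 1.93). There were 261 such regions in 181 broad domains, or 43.0% of these, against 7.65% of narrower domains. A wider domain has more room for a region, so these shares are not at equal length. With the 62218 best-scoring peaks of each list the ratio was 1.35, and against domains of 4000 to 7800 bp it was 1.38. Regions of the E13.5 list alone gave 0.843 (interval 0.687 to 1.03, which includes 1), and 0.947 against domains of 4000 to 7800 bp. They numbered 106 in 88 broad domains, or 20.9% of these, against 6.41% of narrower domains. With 1 library per stage, this difference between E13.5 and E15.5 has no replicate check.

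Broad domains lay close to other domains. The median distance to the nearest other domain was 4.2 kb (interval of the median 3.6 to 4.8), against 6.8 kb for domains of 4000 to 7800 bp and 12.6 kb for narrower domains (interval 12.4 to 12.8). Another domain lay within 1000 bp of 72 broad domains (17.1%), where 6.46% of all domains had one. In the 4000 to 7800 bp class the share was 10.6%. Within 50 kb a broad domain had 4.49 other domains on average, against 2.74 for a narrower domain. The nearest other broad domain was at a median of 601.9 kb (interval 501.4 to 760.6). For domains of 4000 to 7800 bp the nearest broad one was at 1071.6 kb, and for all narrower domains at 1744 kb.

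A further broad domain lay within 50 kb of 80 of the 421 (19.0%), where 6.07% of all domains had one that near. For domains of 4000 to 7800 bp the share was 11.1%, and it was 15.9% within 100 kb. Within 100 kb one was found for 108, 25.7% (interval 21.7 to 30.0), where 9.89% of all domains had a broad one that near. Linked at that distance, the 108 formed 50 runs, of which 42 held 2 and 8 held 3, and the other 313 stood alone. Of all windows of 1 Mb, 321 held a broad domain, of which 242 held 1, 62 held 2, 14 held 3 and 3 held more. The fullest window was chr11:115000001-116000000 with 5 broad domains of 53.2 kb in all among 50 domains, and 21 E13.5 and 20 E15.5 peaks inside the broad ones. The windows chr7:52000001-53000000 and chr3:101000001-102000000 each held 4. Chromosome 11 held the most broad domains, 41 of its 1934 domains, and chromosome X held 1 of 562.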

How the data were processed

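For the DNase libraries the submitters' processing notes name BWA 0.6.1-r104, bedtools and SAMtools, for the ChIP libraries SICER, Bowtie and CASAVA 1.8.2, and for the RNA libraries RSEM 1.2.0, Bowtie 0.12.7 and CASAVA 1.8.2. The build was mm9 throughout. The DNase peak caller is not given in the sources used here. The deposited DNase lists, 1 library each, give the authors' score (highest 1000), the authors' signal and the authors' −log10 p-value (1.3 to 16), read from the values because the columns carry no header. The H3K27ac file deposited by the authors gives positions alone, in windows of 200 bp, with no value per domain or library. Whether the ChIP libraries were pooled is not stated. Of neighbouring domains, 950 lay 1000 bp or less apart and 33 touched. The deposited RNA-seq values, a square-root score per the file headers, served for marker ranks alone. The number of reads behind each list is unknown.

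Peaks were ranked within a list by score, ties by signal, and pooled per kb over domains with Python 3.11.15, numpy 2.4.6, pandas 2.3.3 and scipy 1.17.1. Lists were merged at an overlap of 1 bp. Share intervals are Wilson, counts per kb Poisson, ratios of counts exact binomial and medians order-statistic intervals. Scripts were tested on simulated data. Named domains were the widest, those with most preSertoli-specific regions, those of highest and lowest E13.5 density and the fullest 1 Mb windows. Members and lists were chosen with earlier results of these data known. Alternatives changed the peaks, the overlap, the width limit, the narrower domains, the joining of domains, the chromosomes and the libraries used. Genes in the domains were not analysed here.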

Additional observations from a re-analysis of the deposited data

Results flagged for a closer look

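The point estimates of the ratio of peaks per kb in broad over 4000 to 7800 bp domains differed in sign between cell types. Both preSertoli lists were above 0 (log2 ratio 0.015 and 0.07) and all 6 other lists below it (-0.19 to -0.09), a difference of means of 0.18. The intervals included 0 in both preSertoli lists (-0.067 to 0.096 and -0.0057 to 0.15), in fibroblasts (-0.21 to 0.0059) and in kidney (-0.19 to 0.010), so the sign is not settled for these 4. The exact two-sided permutation test gave p = 0.0714, the smallest that 2 libraries against 6 allow. The contrast was flagged because the signs split in this way, and such a split fixes the p-value at that floor, so the test adds nothing. No other setting scanned, the main comparison included, showed the split. The preSertoli nuclei were the ones cut by endogenous nucleases, and cell type and digestion cannot be told apart.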

How the results depend on the processing

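No paired analysis was possible because, as far as replicate numbers go, each DNase group was 1 library and the H3K27ac list carries no value per library (broad and narrower domains were compared within each library). Density, covered share and rank kept their direction and stayed past the threshold of 0.05 in every alternative run. Spacing did so too except over pairs within 2000 bp against 4000 to 7800 bp domains, chosen after seeing the data, where the mean log2 ratio was 0.012 (exact permutation p = 0.445), and the cause was not tested. The preSertoli against other contrast kept its direction and could not pass that threshold. The mean log2 density ratio ranged from -0.63 (better-scoring 50% of peaks) to -0.09 (against 4000 to 7800 bp), and from -0.34 to -0.27 when 1 library was left out. The covered share ranged from -0.72 to -0.33 (log2), spacing from 0.012 to 0.75 (log2) and rank from -22.9 to -7.91 percentile points. For the E13.5 preSertoli list by itself the log2 ratio of peaks per kb, -0.15 in the main comparison, turned to 0.015 against narrower domains of 4000 to 7800 bp, and the E15.5 list, at -0.04, turned to 0.073 there and to 0.0082 with broad from 10000 bp, and the cause was not tested. The share of broad domains with a preSertoli-specific region was 41.1% in the better-scoring 50% of peaks, 43.7% with equal numbers of peaks, 75.5% when either stage sufficed and 39.0% from 6000 bp. Their density was 0.0501, 0.0542 and 0.148 per kb under the first 3 of these and 0.0568 from 10000 bp. The median distance to the nearest broad domain was 163.2 kb from 6000 bp, 1501 kb from 10000 bp and 393.1 kb with domains within 1000 bp joined, which gave 648 broad domains. The density ratio of regions in the E15.5 list alone was 1.35 with equal numbers of peaks and 1.38 against 4000 to 7800 bp, alternatives chosen after seeing the data, like all those for regions of 1 stage alone. Absence of a peak does not show closed chromatin, and the depth behind each list is unknown.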
